A study of Mus musculus with 24 samples.

Results

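Collagens and the enzymes that remodel them were followed in salivary gland organoids after irradiation of the gland. The set holds every gene whose symbol follows the naming of the collagens (Col17a1 left out), the matrix metalloproteinases (MMPs), the tissue inhibitors of metalloproteinases (TIMPs), the ADAMTS proteases and the lysyl oxidases, and that had at least 50 counts summed over all libraries. Of 92 matching symbols 33 reached that minimum, 42 had 1 to 49 counts and 17 had no count. They stand beside 47643 genes in the files, of which 12285 had at least 50 counts. Just inside the minimum were Adamts15 and Adamts4 with 52 counts each and Adamts7 with 61. Just outside were Adamts10 with 48, Mmp2 with 47, Adamts5 with 46 and Col4a3 with 39.

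The organoids were small epithelial cultures from salivary gland stem and progenitor cells of C57BL/6 mice, with irradiation (IR) or sham irradiation of the gland before collection. The time from treatment to collection was 14 or 90 days, and both passage 1 and passage 2 cultures entered sequencing, for 8 groups of 3 libraries (24 in all). The groups were sham at day 14 in passage 1, IR at day 14 in passage 1, sham at day 14 in passage 2, IR at day 14 in passage 2, and the same 4 at day 90. All groups shared the same culture in Matrigel, with medium that contained N2, Glutamax, EGF, FGF2, insulin, dexamethasone and Y-27632. The labels name no genetic change and no radiation dose. The labels do not say whether replicates came from separate animals or cultures, nor how a passage 2 library relates to one of passage 1. The p-values therefore measure only how these libraries vary, and part of that variation may be technical.

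Collagens are trimeric proteins of the extracellular matrix. Fibrillar collagens, made mainly by fibroblasts, form the fibres of connective tissue, whereas collagen IV builds the network of the basement membrane on which an epithelium rests. MMPs and ADAMTS proteases cut matrix proteins, TIMPs block these proteases, and lysyl oxidases cross-link collagen and elastin. Matrigel is itself an extract of basement membrane, so these cultures were surrounded by collagen IV and laminin whether or not they made their own.

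A library held between 1151608 and 3189466 counts on genes. The set took 0.219% to 0.623% of them, or 4182 to 19310 counts. Gm42418, a predicted gene that overlaps a ribosomal RNA repeat, took 11.8% to 29.0%, and in 3 libraries its share stood apart from that of the other replicates: replicate 1 of sham, day 90, passage 1, replicate 1 of IR, day 90, passage 2, and replicate 3 of IR, day 14, passage 2. Epithelial markers were high in every library, with a summed level of 1758 to 3450 counts scaled to a common library size (CPM) over 6 genes. The 11 fibroblast markers summed to 0.0 to 46.4 CPM, mostly from Prrx1, and Pdgfrb, Thy1, Dpt and Pi16 had no count. The 8 endothelial markers summed to at most 2.06 CPM. In bulk libraries such as these, fewer cells of a type and less RNA per cell cannot be told apart.

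Levels can be read across genes only roughly. A 3' tag count does not grow with transcript length, but the annotation and strand setting that assign reads to genes were not given. The 3 TIMPs took 76.1% of the 200817 counts of the set, nearly all from Timp3 (113019 counts) and Timp2 (39044). Timp3, the TIMP that stays bound to the matrix, averaged 2113 CPM and Timp2 711 CPM. Timp1 averaged 15.6 CPM, below Col18a1, Lox, Mmp14, Adamts1, Col12a1, Col7a1 and Col4a1. The most abundant collagen gene was Col18a1, whose product belongs to basement membranes and releases endostatin, with 102 to 458 CPM. The main lysyl oxidase, Lox, ranged from 16.5 to 256 CPM, and the membrane-bound collagenase Mmp14 from 70.0 to 165 CPM. Adamts1, a protease of versican and aggrecan, ranged from 49.3 to 198 CPM.

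Fibrillar collagens were almost absent from the counts. Of 11 fibrillar collagen genes 1 reached the minimum, Col11a1, a minor chain of cartilage-type fibrils, with 202 counts over all libraries. The chains of collagen I, the main collagen of connective tissue, had 7 counts (Col1a1) and 4 counts (Col1a2), and Col3a1 had none. In comparison, 5 of 6 collagen IV genes reached the minimum, with 2150 counts for Col4a1, 1327 for Col4a5 and 1103 for Col4a2. Of 21 MMP genes 8 reached it. The gelatinases Mmp2 and Mmp9 did not, with 47 and 2 counts. Of the inhibitors, Timp4 had no count.

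**Figure D1:**
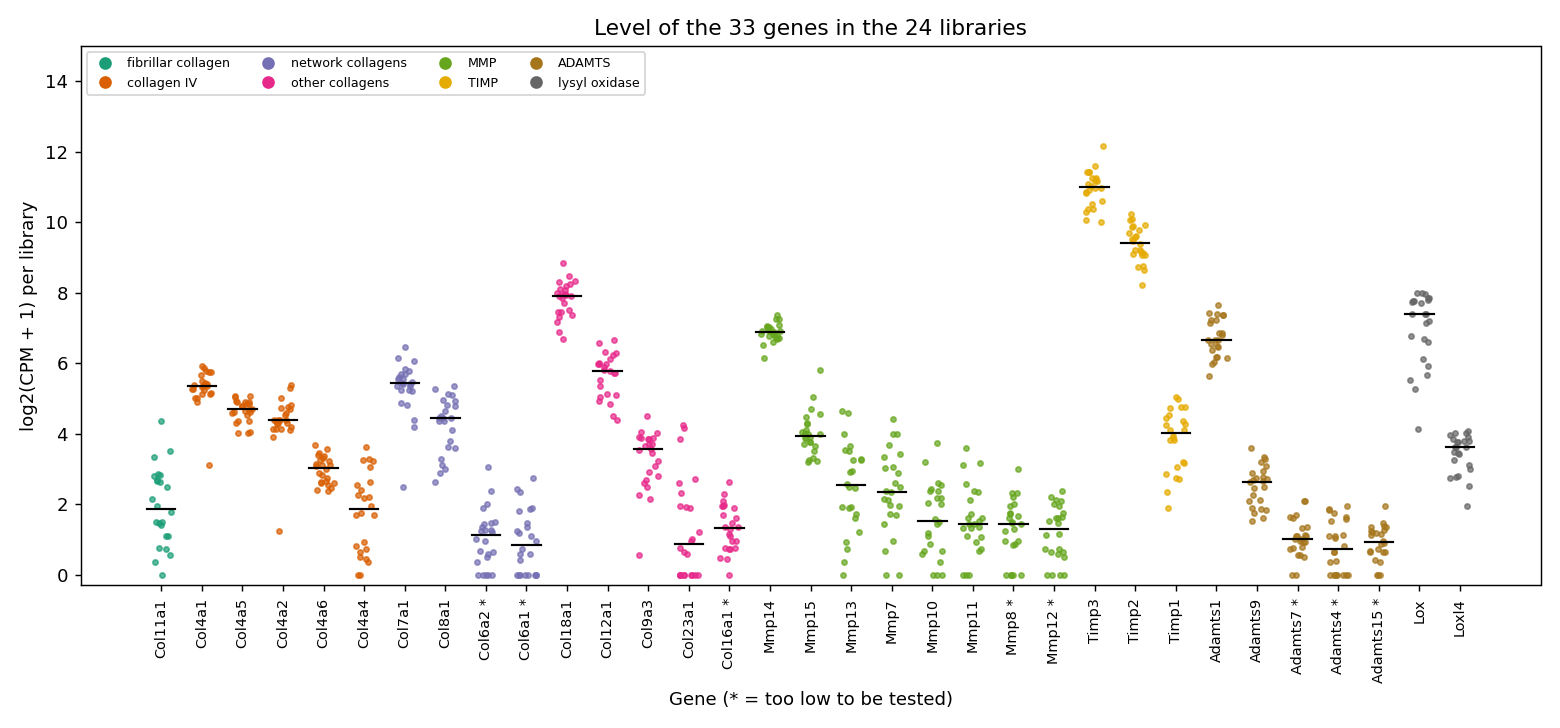
Level of each of the 33 genes as log2(CPM + 1) in each of the 24 libraries (1 point per library), coloured by role; an asterisk marks the 8 genes too low to be tested. Timp3 has the highest mean level and Timp2 the next, each with libraries that overlap the gene below, and Col11a1 is the only fibrillar collagen shown.

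The 8 genes too low to be tested were Col16a1 with 91 counts, Col6a1 and Col6a2 with 80 each, Mmp8 with 106, Mmp12 with 89, Adamts7 with 61, and Adamts15 and Adamts4 with 52 each. The other 25 entered the test. Statements that groups did not overlap describe their libraries only, since the share of all tested genes with such groups was not computed. Differences are given as log2 fold changes with their standard error (SE), and a gene was called at a Benjamini-Hochberg adjusted p under 0.05 over all 10563 tested genes in edgeR's quasi-likelihood test.

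Collagen IV is encoded by gene pairs that share a start region, and Col4a1 and Col4a2, which form the common network of nearly all basement membranes, are shown here because 1 library was low in both. The windows below, from RefSeq on GRCm38.p6, run from 250 bases before to 50 bases after each start. Col4a1 lies on the minus strand (chr8:11312777-11313076) and Col4a2 on the plus strand (chr8:11312555-11312854). Capitals mark CCAAT or GGGCGG on either strand, read as ATTGG or CCGCCC where they lie on the other strand.
Col4a1: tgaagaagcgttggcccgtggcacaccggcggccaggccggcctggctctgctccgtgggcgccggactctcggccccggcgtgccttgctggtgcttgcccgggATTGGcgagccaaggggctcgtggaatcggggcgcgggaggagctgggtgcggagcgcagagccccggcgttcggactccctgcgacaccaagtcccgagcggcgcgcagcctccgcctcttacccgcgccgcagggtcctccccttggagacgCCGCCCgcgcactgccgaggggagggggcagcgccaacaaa
Col4a2: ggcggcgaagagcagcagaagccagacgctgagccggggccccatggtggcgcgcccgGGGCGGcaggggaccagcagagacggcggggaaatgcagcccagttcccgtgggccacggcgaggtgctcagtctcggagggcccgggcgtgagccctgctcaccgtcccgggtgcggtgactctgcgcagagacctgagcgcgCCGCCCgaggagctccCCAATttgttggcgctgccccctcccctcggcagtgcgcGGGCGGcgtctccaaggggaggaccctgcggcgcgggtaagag
The starts lie 21 bases apart, so the windows share 78 bases as reverse complements, and 1 GGGCGG falls in them. GC content was 74.0% for Col4a1 and 73.7% for Col4a2, against a median of 52.7% over all windows. CCAAT occurred in 37.4% of 32851 such windows and GGGCGG in 35.7%. Neither window held TATAAA, found in 13.6% of windows, or TGANTCA, found in 7.81%, and a match or its absence describes only these letters.

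In 23 of 24 libraries Col4a1 lay between 28.9 and 59.1 CPM and Col4a2 between 13.9 and 40.5 CPM, with a Col4a2 to Col4a1 ratio of 0.326 to 0.759. The exception was replicate 3 of IR, day 90, passage 1, where both were low. It had 7.65 CPM of Col4a1 (11 counts) and 1.39 CPM of Col4a2 (2 counts). In the other replicates of its group Col4a1 stood at 37.6 and 42.3 CPM. The low level was not limited to this pair. Every tested collagen gene with counts in that group was lowest in this library, by differing margins. Col18a1 stood at 118 CPM there against 269 and 256 CPM, Col7a1 at 20.2 against 36.1 and 42.3 CPM, and Col4a5 at 19.5 against 22.2 and 27.8 CPM. The same library had the highest Mmp15 of all, 55.0 CPM. Neither gene of the pair was called in any comparison. For IR against sham at day 90 in passage 1 the Col4a1 difference was -0.58 (SE 0.34, adjusted p = 0.480), and -0.15 without that library.

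**Figure D2:**
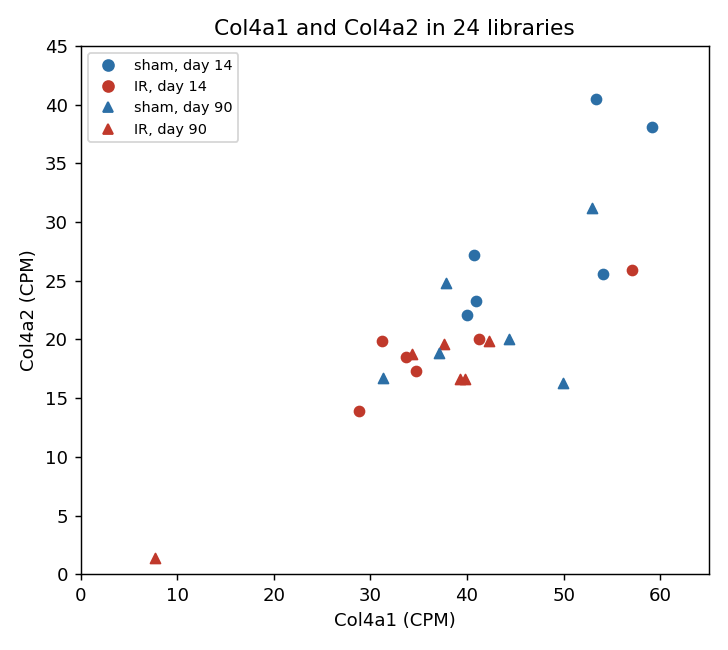
Col4a2 against Col4a1 in CPM, 1 point per library, with sham in blue, IR in red, day 14 as circles and day 90 as triangles. The IR library of day 90 at 7.65 and 1.39 CPM lies apart from the other 23.

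Irradiation was compared with sham at each day and passage, and as the mean of these 4 differences. At day 90 in passage 2, 3 of 25 tested members were called, 2 higher and 1 lower, against 4.92% of all genes. For the mean of the 4 differences 3 were called, 2 higher and 1 lower, against 11.0% of all genes. At day 14 in passage 1 none was called (0.341% of all genes), and DESeq2 called 1, Col12a1. There 7 of 25 had an unadjusted p under 0.05, against 11.0% of all genes. None was called at day 14 in passage 2 (0.0189% of all genes) or at day 90 in passage 1 (0.0473%), nor by DESeq2. In these comparisons 2 members each had an unadjusted p under 0.05, against 6.73% and 12.7% of all genes. The median log2 difference of the 25 members at day 90 in passage 2 was 0.35, against 0.01 for all genes. These comparisons share libraries with those of passage and day below, and the mean contains the other 4.

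Timp3 rose with irradiation at day 90 in passage 2. Sham libraries held 1320, 1548 and 1454 CPM and IR libraries 2315, 4602 and 2753 CPM, so the groups did not overlap. The means were 1440 ± 114 and 3223 ± 1214 CPM (SD, n = 3), a log2 difference of 1.16 (SE 0.23, adjusted p = 0.00578). In the mean of the 4 comparisons it rose by 0.39 (SE 0.12, adjusted p = 0.0301), a call lost in 9 of 33 alternatives. At day 14 in passage 1 sham held 2174, 2023 and 2090 CPM and IR 2316, 2461 and 2740 CPM, a log2 difference of 0.26 (adjusted p = 0.780). At day 90 in passage 1 the difference was -0.21 (adjusted p = 0.746). The call at day 90 in passage 2 was lost without replicate 2 of the IR group, the library at 4602 CPM (0.81, adjusted p = 0.0641), and in a fit of only those 6 libraries (1.14, adjusted p = 0.0936). The call in the mean was lost with total counts (adjusted p = 0.0767), after adjustment for the Gm42418 share (0.155), and without any of 7 libraries. These were replicate 2 of sham, day 14, passage 1 (0.050007), replicate 3 of sham, day 14, passage 2 (0.0613), replicates 1 (0.0620) and 2 (0.0549) of IR, day 14, passage 2, replicate 1 of sham, day 90, passage 1 (0.0522), replicate 2 of IR, day 90, passage 1 (0.0506), and replicate 2 of IR, day 90, passage 2 (0.0634).

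The same comparison held the largest fall of the set, in Col23a1, which encodes a transmembrane collagen. Sham libraries held 16.8, 2.74 and 5.63 CPM and no IR library had a count. Against a floor of 3 counts over the IR group (0.365 CPM), the pooled sham level of 8.61 CPM (80 counts) makes Col23a1 at least 23.6-fold lower after irradiation (adjusted p = 0.00529). Of those 80 counts 56 came from sham replicate 1, and without it the level was 4.03 CPM and the bound 11.05-fold. At day 90 in passage 1 the IR libraries had no count either, and sham held 2.82, 0.704 and 1.03 CPM. Against the same floor of 3 counts, the pooled sham level of 1.30 CPM (11 counts) was 2.11-fold higher. Without sham replicate 1 it was 1.46-fold higher, and the gene was not called there (adjusted p = 0.379). At day 14 in passage 2, where sham held 2.84, 13.6 and 18.1 CPM and IR 4.01, 1.33 and 5.07 CPM, the difference was -1.65 (SE 0.71, adjusted p = 0.710). In the mean of the 4 comparisons Col23a1 fell (adjusted p = 0.0301), and the fitted size is no bound because 2 IR groups were at 0. That call was lost without replicate 2 (adjusted p = 0.0993) or replicate 3 (0.0919) of sham, day 14, passage 1, and after adjustment for the Gm42418 share (0.0637).

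The start regions of Timp3 (chr10:86300162-86300461, plus strand) and Col23a1 (chr11:51289670-51289969, plus strand) are shown as those of the genes that moved in opposite directions in this comparison, with capitals as above, from RefSeq on GRCm38.p6.
Timp3: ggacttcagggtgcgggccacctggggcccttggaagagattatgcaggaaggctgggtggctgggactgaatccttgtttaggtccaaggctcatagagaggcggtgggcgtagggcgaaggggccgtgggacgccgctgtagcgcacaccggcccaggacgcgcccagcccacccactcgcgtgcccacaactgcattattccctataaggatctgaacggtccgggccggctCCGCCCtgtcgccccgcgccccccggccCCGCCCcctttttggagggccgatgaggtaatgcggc
Col23a1: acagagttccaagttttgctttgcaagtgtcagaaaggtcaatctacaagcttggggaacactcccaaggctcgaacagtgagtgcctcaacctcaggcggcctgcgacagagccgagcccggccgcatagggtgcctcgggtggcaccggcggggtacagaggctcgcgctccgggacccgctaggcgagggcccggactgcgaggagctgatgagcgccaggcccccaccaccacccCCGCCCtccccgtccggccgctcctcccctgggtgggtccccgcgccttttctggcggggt
Both were rich in GC, at 67.0% for Timp3 and 67.7% for Col23a1. Timp3 held GGGCGG at 2 places and Col23a1 at 1, and neither held CCAAT or any of the other motifs. Of the 33 genes 27 had a window in this table, 31 windows in all, of which 21 held GGGCGG and 13 held CCAAT.

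Col4a4, a chain of the collagen IV network that is best known from the kidney filter, also rose at day 90 in passage 2. Sham libraries held 0.300, 0.912 and 0.751 CPM and IR libraries 3.57, 3.76 and 4.87 CPM, with no overlap. The log2 difference was 2.54 (SE 0.67, adjusted p = 0.0283). The call rests on few counts. It was lost without any 1 of 5 of the 6 libraries: sham replicate 1 (adjusted p = 0.125), 2 (0.0535) or 3 (0.0829), or IR replicate 2 (0.0875) or 3 (0.125). It was also lost after adjustment for the Gm42418 share (0.0615) and in a fit of only those 6 libraries (0.0583). The other collagen IV chains were not called. Col4a5, which joins both of the rarer collagen IV networks, stood at 29.1, 29.2 and 24.8 CPM in sham and 25.3, 31.8 and 26.8 CPM in IR.

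Several members at day 90 in passage 2 had groups that did not overlap but did not pass the test. How many of all tested genes had such groups was not counted. Lox stood at 16.5, 96.4 and 109 CPM in sham and 168, 145 and 232 CPM in IR, a log2 difference of 1.30 (SE 0.40, adjusted p = 0.0646). Col8a1, a short-chain collagen of network type, stood at 11.1, 6.38 and 16.1 CPM in sham and 27.1, 33.01 and 34.1 CPM in IR, a difference of 1.49 (SE 0.47, adjusted p = 0.0716). Timp2, which blocks MMPs and also helps Mmp14 to activate Mmp2, stood at 533, 730 and 878 CPM in sham and 1078, 932 and 956 CPM in IR (0.47, adjusted p = 0.365). DESeq2 called Lox and Col8a1 here. Col7a1, the collagen of anchoring fibrils, stood at 27.0, 53.5 and 56.0 CPM in sham and 36.6, 4.60 and 17.4 CPM in IR, with overlap (-1.17, SE 0.45, adjusted p = 0.150). Mmp14 differed by 0.06 (SE 0.18, adjusted p = 0.919).

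Other measures moved with irradiation at day 90 in passage 2. The share of Gm42418 was 13.1% to 15.5% in sham and 13.5%, 24.3% and 23.02% in IR. With that share as a covariate, the Timp3 difference was 1.04 (adjusted p = 0.0364). Of 6 epithelial markers 3 rose (Krt18, Krt8 and Cldn4), and of 5 basal duct markers 2 fell (Trp63 and Krt15), against 4.92% of all genes called. The summed level of basal duct markers was 5393 to 8120 CPM in sham and 1779 to 5663 CPM in IR, and the part of these shifts in the results above was not tested. Fibroblast markers summed to 5.47 to 46.4 CPM in sham and 9.33 to 20.2 CPM in IR. Without the 3 libraries whose Gm42418 share stood apart, 6 members were called: Timp3, Col4a4, Col8a1 and Lox higher and Col23a1 and Col7a1 lower. That exclusion was chosen after seeing the data, and the share of all genes called under it is not given here.

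**Figure D3:**
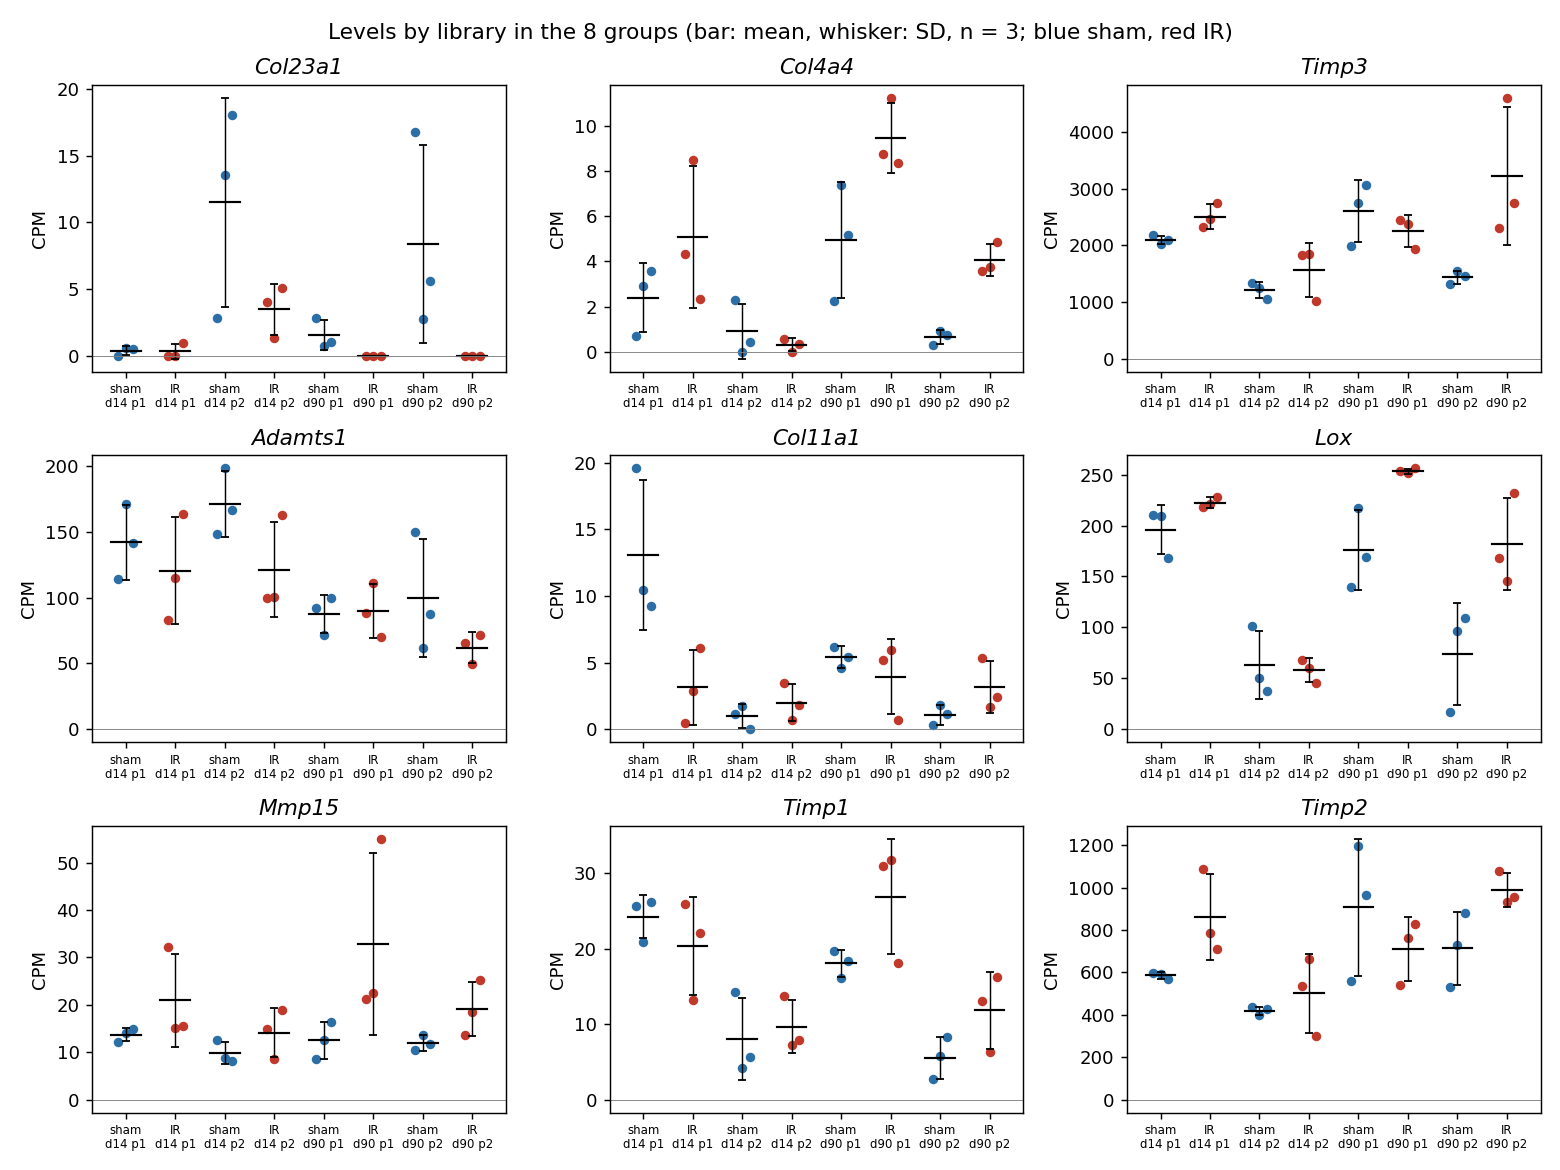
Levels in CPM of the 9 members called in at least 1 comparison, by group, with 1 point per library, the mean as a bar and the SD as a whisker (n = 3), sham in blue and IR in red. Timp3 and Col4a4 lie higher and Col23a1 lower in IR than in sham at day 90 in passage 2.

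Among the proteases, Mmp15, a membrane-bound MMP related to Mmp14, was the member called for irradiation over the 4 comparisons together. Its mean log2 difference was 0.80 (SE 0.19, adjusted p = 0.00912), and the call held under all 33 alternatives run for it. At day 90 in passage 1 sham held 8.46, 12.7 and 16.3 CPM and IR 21.1, 22.5 and 55.0 CPM. The groups did not overlap, and the difference of 1.34 (SE 0.36, adjusted p = 0.129) was not called. Without the library at 55.0 CPM it was 0.76. At day 14 sham and IR held 12.2, 14.0 and 14.9 against 32.2, 15.1 and 15.5 CPM in passage 1 (0.64, adjusted p = 0.604). In passage 2 they held 12.5, 8.86 and 8.18 against 14.9, 8.63 and 18.8 CPM (0.57, adjusted p = 0.844). At day 90 in passage 2 they held 10.5, 13.7 and 11.6 against 13.7, 18.4 and 25.1 CPM (0.66, adjusted p = 0.351). Each of the 4 differences was above 0, and none was called alone. In the mean of the 4 comparisons 4 of 5 basal duct markers fell (Trp63, Krt15, Itga6 and Krt5), 3 of 6 epithelial markers rose, and of 2 tested acinar markers Pip fell. Of all genes 11.0% were called in that mean. At day 90 in passage 1 basal duct markers summed to 4858 to 8333 CPM in sham and 2140 to 4415 CPM in IR, and the part of these shifts in the members called for the mean was not tested. Mmp11, an MMP first known from tumour stroma, had a mean difference of 1.42 (SE 0.46, adjusted p = 0.0507).

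At day 14 in passage 1 the members with the smallest p were mostly lower after irradiation. Col12a1, a collagen that binds to fibrils, stood at 99.3, 93.7 and 61.6 CPM in sham and 20.2, 21.7 and 54.9 CPM in IR, a difference of -1.35 (SE 0.37, adjusted p = 0.124). DESeq2 called it (adjusted p = 0.0313), as did edgeR without IR replicate 3 (-2.02, adjusted p = 0.00984). Col4a5 stood at 32.4, 29.1 and 27.7 CPM in sham and 15.4, 18.9 and 19.7 CPM in IR (-0.73, SE 0.24, adjusted p = 0.224). Neither gene's groups overlapped. Col11a1 had a difference of -2.0 (SE 0.66, adjusted p = 0.236). Of the members with a difference above 0, Mmp10, a stromelysin, stood at 0, 3.49 and 0.513 CPM in sham and 8.17, 12.3 and 4.22 CPM in IR (2.48, SE 0.99, adjusted p = 0.353). Timp2 differed by 0.56 (adjusted p = 0.446). Markers of other cells moved here: the 8 immune markers summed to 8.10 to 9.89 CPM in sham and 18.3 to 53.4 CPM in IR. The 6 myoepithelial markers summed to 17.5 to 21.05 and 0.0 to 4.69 CPM, and the 7 acinar markers to 385 to 515 and 129 to 346 CPM. The 8 pericyte and Schwann markers, mostly Notch3, summed to 35.8 to 39.6 and 55.3 to 64.4 CPM. The 22 interstitial matrix genes of the lists below, mostly Postn, summed to 1038 to 1142 CPM in sham and 215 to 455 CPM in IR. Over all libraries most immune counts came from Lyz2 (321 counts), with Cd68 next (104 counts). The part of these markers and matrix genes in the values above was not tested.

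The remaining irradiation comparisons gave these members the smallest p, none of them called. At day 14 in passage 2, Mmp7, the matrilysin of glandular epithelia, stood at 1.71, 2.95 and 3.45 CPM in sham and 14.9, 20.6 and 9.05 CPM in IR (2.38, SE 0.79, adjusted p = 0.561). The groups did not overlap. Timp3 (0.37), Loxl4, a lysyl oxidase relative (0.64), Adamts1 (-0.49) and Col4a2 (-0.47) had adjusted p-values of 0.787 to 0.874 there. For day 90 in passage 1 the values were 1.51 for Mmp11, 0.88 for Col8a1 and -0.71 for Col7a1, with adjusted p-values of 0.409 to 0.523.

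Passage 2 was compared with passage 1 in each treatment and day. In sham at day 14, 2 of 25 members were called, 1 higher and 1 lower, against 1.18% of all genes. In sham at day 90, 2 were called, both lower, against 1.36% of all genes. In IR at day 14, 2 were called, both lower, against 1.38% of all genes. In IR at day 90 none was called, nor any of all genes (0%), and DESeq2 called no member. At an unadjusted p under 0.05 there were 6 of 25 members, against 10.1% of all genes. The median difference of the members was -0.48 in sham at day 14 (all genes 0.00), -0.14 in sham at day 90 (all genes -0.02), 0.22 in IR at day 14 (all genes 0.02) and -0.09 in IR at day 90.

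In sham at day 14 the fibrillar chain Col11a1 fell and Col23a1 rose. Col11a1 stood at 19.6, 10.5 and 9.24 CPM in passage 1 and 1.14, 1.77 and 0 CPM in passage 2, a difference of -3.79 (SE 0.80, adjusted p = 0.0214). Col23a1 had 2 counts over the passage 1 libraries and 70 over those of passage 2, a ratio of 31.2 (95% interval 8.32 to 263, counting error only), and was called with an adjusted p of 0.0399. Neither gene's groups overlapped. The Col11a1 call was lost without passage 1 replicate 1 (adjusted p = 0.0823) or passage 2 replicate 1 (0.0524), 2 (0.0588) or 3 (0.170). That of Col23a1 was lost without passage 1 replicate 1 (0.120), 2 (0.125) or 3 (0.132) or passage 2 replicate 2 (0.105) or 3 (0.206). At day 14 in IR Col23a1 had 2 and 23 counts, a ratio of 10.1 (2.49 to 88.2), and was not called (adjusted p = 0.239). The myoepithelial markers summed to 17.5 to 21.05 CPM in sham, day 14, passage 1 and 6.89 to 10.2 CPM in passage 2. Epithelial markers went from 2822 to 2979 CPM down to 1758 to 2142 CPM, with Krt8 (-1.91) and Krt18 (-1.79) called. Basal duct markers went from 4348 to 6168 CPM up to 8785 to 10019 CPM, and immune markers from 8.10 to 9.89 CPM down to 0.861 to 1.18 CPM. None of these sums overlapped between the passages, and their part in these results was not tested.

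Lox and Col4a4 were lower in passage 2 among the irradiated organoids of day 14. Lox stood at 218, 221 and 228 CPM in passage 1 and 68.2, 59.7 and 44.9 CPM in passage 2. The means were 223 ± 5.17 and 57.6 ± 11.8 CPM (SD, n = 3), a difference of -1.96 (SE 0.42, adjusted p = 0.0223). The groups lay far apart, as they did in sham at day 14, where Lox stood at 211, 209 and 168 against 101, 50.2 and 37.5 CPM (-1.64, SE 0.42, adjusted p = 0.0553). In sham at day 90 the values were 139.9, 218 and 169 against 16.5, 96.4 and 109 CPM (-1.25, adjusted p = 0.136). The values in IR at day 90 were 253, 251 and 256 against 168, 145 and 232 CPM (-0.48, adjusted p = 0.708). In all 4 comparisons every passage 1 library was above every passage 2 library, and Lox was called in 1 of them. That call was lost without passage 1 replicate 1 (adjusted p = 0.128) or 2 (0.0736), or without passage 2 replicate 1 (0.0524), 2 (0.0566) or 3 (0.102). It was also lost without the 3 libraries that stood apart (0.0878). Other markers moved between these passages of IR at day 14. The 7 acinar markers summed to 129 to 346 CPM in passage 1 and 401 to 1991 CPM in passage 2. The 11 fibroblast markers summed to 0.0 to 7.03 and 9.41 to 18.9 CPM, and the 8 pericyte and Schwann markers to 55.3 to 64.4 and 36.5 to 43.6 CPM. The 8 immune markers summed to 18.3 to 53.4 CPM in passage 1 and 1.45 to 6.88 CPM in passage 2, and the 6 epithelial markers to 2797 to 3450 and 1786 to 2221 CPM. Of the latter Krt8 fell by 1.06 and Krt18 by 1.01, and the part of these shifts in the fall of Lox and Col4a4 was not tested.

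Col4a4 had 23 counts in IR, day 14, passage 1 and 2 in passage 2, a ratio of 13.1 (3.24 to 115), and was called there (adjusted p = 0.0395). The same gene fell in sham at day 90, from 2.26, 7.39 and 5.17 CPM to 0.300, 0.912 and 0.751 CPM, a difference of -2.88 (SE 0.65, adjusted p = 0.0277). Groups did not overlap in either comparison. In IR at day 14 the call was lost without passage 1 replicate 1 (adjusted p = 0.177) or 2 (0.171), without passage 2 replicate 1 (0.0789), 2 (0.0896) or 3 (0.155), and without the 3 libraries that stood apart (0.119). In sham at day 90 it was lost without passage 1 replicate 2 (0.104) or 3 (0.105), or passage 2 replicate 1 (0.109), 2 (0.0642) or 3 (0.1001). Col4a4 of irradiated organoids at day 90 stood at 8.77, 11.2 and 8.35 CPM in passage 1 and 3.57, 3.76 and 4.87 CPM in passage 2 (-1.21, SE 0.51, adjusted p = 0.423). The low level in sham, day 90, passage 2 enters both this fall and the rise with irradiation, since they share those 3 libraries.

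The soluble inhibitor Timp1 fell with passage in sham at day 90. It stood at 19.7, 16.2 and 18.4 CPM in passage 1 and 2.70, 5.78 and 8.26 CPM in passage 2, or 18.1 ± 1.79 and 5.58 ± 2.79 CPM (SD, n = 3). The difference was -1.71 (SE 0.41, adjusted p = 0.0363), and the groups did not overlap. The call was lost without any 1 of the 6 libraries (adjusted p up to 0.140), after adjustment for the Gm42418 share (0.0611) and without the 3 libraries that stood apart (0.0672). In the other passage comparisons Timp1 differed by -1.61 in sham at day 14 (adjusted p = 0.0581), -1.12 in IR at day 14 (0.190) and -1.18 in IR at day 90 (0.291). Timp3 differed by -0.79 (0.118), -0.85 (0.0702) and -0.68 (0.157) in sham at day 14, sham at day 90 and IR at day 14. In IR at day 90 Timp3 differed by 0.52 (0.450), with 2448, 2378 and 1935 CPM in passage 1. Other genes also fell with passage in sham at day 90. Of the 6 epithelial markers these were Krt8 (-1.50, adjusted p = 0.000529) and Krt18 (-1.19, adjusted p = 0.00837). The matrix gene Smoc1 (-3.00, adjusted p = 0.0138) and Lyz2, a lysozyme of myeloid cells (-5.71, adjusted p = 0.0484), fell too. Immune markers summed to 1.13 to 20.1 CPM in passage 1 and 1.13 to 3.89 CPM in passage 2, with overlap. The part of all these shifts in the values above was not tested. Among irradiated organoids of day 90 the other members with the smallest p were Mmp7 (2.48, adjusted p = 0.337), Col12a1 (0.89, adjusted p = 0.406) and Mmp15 (-0.78, adjusted p = 0.459).

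**Figure D4:**
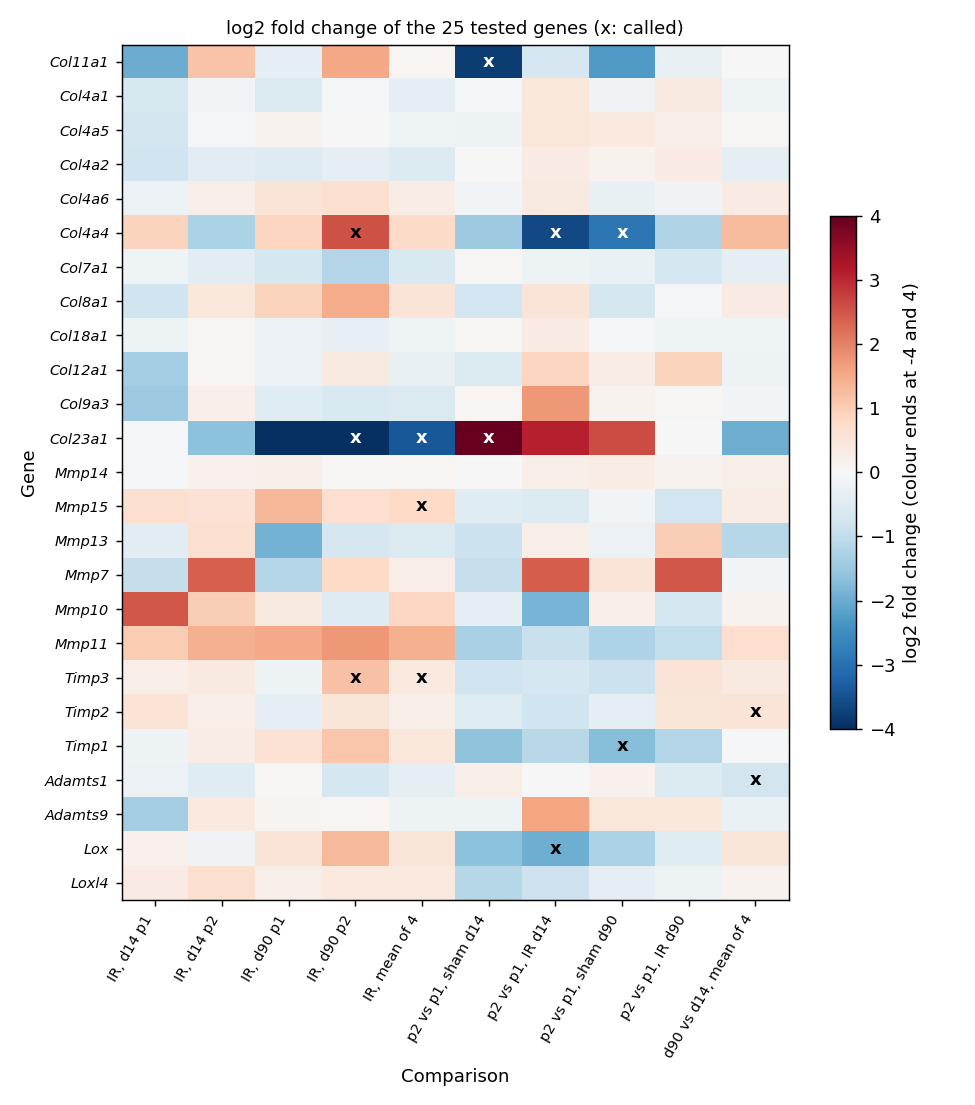
Map of the log2 fold changes of the 25 tested genes (rows) in 10 comparisons (columns), from blue (lower) to red (higher), with an x where the gene was called. Calls are scattered over 9 genes, with Col23a1 and Col4a4 called in 3 comparisons each.

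Day 90 was compared with day 14 as the mean over both treatments and both passages. Of 25 members 2 were called, 1 higher and 1 lower, against 4.81% of all genes. Adamts1 fell by 0.72 on the log2 scale (SE 0.14, adjusted p = 0.00646), a call that held under all 33 alternatives run for it. Its means were 142 ± 28.5 CPM at day 14 and 87.7 ± 14.5 CPM at day 90 in sham, passage 1 (SD, n = 3). In IR, passage 2 its libraries held 99.8, 101 and 163 CPM at day 14 and 65.2, 49.3 and 71.8 CPM at day 90. The acinar marker Pip also fell with day (-1.45, adjusted p = 0.0129). The 7 acinar markers summed to 385 to 515 CPM at day 14 and 263 to 321 CPM at day 90 in sham, passage 1. Over all libraries most acinar counts came from Pip (27181 counts), with Aqp5 next (1942 counts), so the sum largely repeats Pip. The part of the acinar markers in the day results was not tested. For Adamts1 in IR, passage 1 (82.7, 115 and 164 against 88.2, 111 and 70.3 CPM) and in sham, passage 2 (149, 198 and 167 against 149.8, 61.7 and 87.9 CPM) the days overlapped. Timp2 rose by 0.53 (SE 0.13, adjusted p = 0.0249). Its means were higher at day 90 than at day 14 in sham, passage 1 (586 ± 16.5 to 906 ± 323 CPM, SD, n = 3), sham, passage 2 (420 ± 18.9 to 713 ± 173 CPM) and IR, passage 2 (500.4 ± 185 to 988 ± 78.3 CPM). In IR, passage 1 the means went the other way, 861 ± 201 CPM at day 14 and 711 ± 149 CPM at day 90. That call was lost after adjustment for the Gm42418 share (adjusted p = 0.179) and without replicate 2 of sham, day 90, passage 1 (0.0510).

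Whether the irradiation difference itself changed with passage or day was tested by interaction terms. No member was called in the interaction with passage at day 14 (0% of all genes) or day 90 (0%), or with day in passage 1 (0.0189%) or passage 2 (0.00947%). DESeq2 called no member in any of the 4. At an unadjusted p under 0.05 there were 5, 2, 4 and 4 of 25 members, against 6.90%, 3.85%, 8.11% and 5.14% of all genes. The smallest p among them was that of Timp3 with passage at day 90, an interaction of 1.37 (SE 0.33, adjusted p = 0.445). It was called without the 3 libraries that stood apart (1.71, adjusted p = 0.00354), an exclusion chosen after seeing the data. Of those libraries, replicate 1 of IR, day 90, passage 2 (2315 CPM) and replicate 1 of sham, day 90, passage 1 (1996 CPM) held the lowest Timp3 of their groups. Other members with a small p were Col12a1 (1.43, adjusted p = 0.548) and Mmp7 (3.34, adjusted p = 0.548) with passage at day 14, and Adamts9, an ADAMTS protease, there too (1.81, adjusted p = 0.572). With day they were Col4a5 (0.85, adjusted p = 0.464), Col8a1 (1.68, adjusted p = 0.518) and Timp2 (-0.91, adjusted p = 0.509) in passage 1. In passage 2 they were Lox (1.43), Timp3 (0.80) and Col4a4 (3.80), each with an adjusted p of 0.859, and Col23a1, which had the smallest p of that interaction and a negative sign (-5.58, SE 1.77, adjusted p = 0.809).

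The other tested members were called in no comparison. Col18a1, the most abundant collagen gene, ranged from 102 to 458 CPM with a median of 241 CPM, and its smallest adjusted p over irradiation, passage and day was 0.644, for the mean irradiation difference (-0.17, SE 0.20). Mmp14 had a median of 118 CPM and lay close to it in most libraries, with a day difference of 0.24 (SE 0.09, adjusted p = 0.134). Loxl4 ranged from 2.90 to 15.9 CPM (median 11.3), and in sham at day 14 its passages did not overlap (13.5, 6.98 and 15.4 against 5.68, 5.91 and 4.74 CPM, -1.14, SE 0.41, adjusted p = 0.236). Adamts9 ranged from 1.89 to 11.2 CPM (median 5.22), and at day 14 in passage 1 sham held 6.75, 8.73 and 5.65 CPM and IR 2.40, 1.89 and 3.28 CPM, with no overlap (-1.40, SE 0.53, adjusted p = 0.311). Col9a3, a collagen of cartilage fibril surfaces, ranged from 0.481 to 21.6 CPM and was lower in passage 1 than in passage 2 in each IR library of day 14 (1.73, SE 0.61, adjusted p = 0.173). Col4a6, a chain of a rarer collagen IV network, ranged from 4.19 to 11.9 CPM, and the collagenase Mmp13 from 0 to 23.9 CPM.

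Genes around the set were followed in lists of related function. Of 24 genes of collagen processing, 14 were tested, and at day 90 in passage 2 none rose with irradiation and 1 fell, P3h4, part of a prolyl and lysyl hydroxylase complex (-1.35, adjusted p = 0.0178). In the mean of the 4 comparisons the prolyl hydroxylase subunit P4ha2 rose by 0.63 and its relative P4ha1 fell by 0.65. Of 22 basement membrane partners, 15 were tested and none was called at day 90 in passage 2 (median 0.01, all genes 0.01). In the mean Nid1, the linker of laminin and collagen IV, rose by 1.01, the laminin chain Lama5 rose by 0.33 and Sparc, a collagen-binding protein, fell by 0.98. Of 22 interstitial matrix genes 11 were tested, and at day 90 in passage 2 Fbln5, a fibulin of elastic fibres, rose by 2.79 (adjusted p = 0.00918). In that comparison Fbln1, a fibulin of basement membranes, fell by 2.32 (adjusted p = 0.00175) and the TGF-beta induced protein Tgfbi fell by 2.50 (adjusted p = 0.0390). Of 12 tested genes of pericellular proteolysis 1 rose in the mean, the urokinase receptor Plaur (0.96). The called counts in the mean, 2 of 14, 3 of 15, 2 of 11 and 1 of 12 in the order of these lists, stand beside 11.0% of all genes called there. At day 90 in passage 2 the share of all genes called was 4.92%. Beside it, collagen processing had 1 of 14, basement membrane partners none of 15 and pericellular proteolysis none of 12. Interstitial matrix genes had 1 higher and 2 lower of 11. None of the 3 tested collagen receptors was called in any comparison.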

How the data were processed

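Transcripts were measured in 24 libraries of mouse salivary gland organoids with the QuantSeq kit, which reads the 3' end of polyadenylated RNA, per the labels' protocols. For each library the authors deposited a file of unnormalized read counts by gene. The submitters' processing notes name bcl2fastq and GRCm39. No aligner, counting tool, annotation or strand setting was given in the sources used here, so overlapping and antisense genes may have shared reads. Each file held 47643 genes and 5 lines without a gene, left out of library sizes. Reads on no gene were 11.5% to 26.5% of a library and ambiguous reads 0.259% to 0.451%. Symbols came by identifier from an annotation of an older build, for names only (47224 matched, and the rest held 0.01% of the counts). Counts of replicate pairs differed beyond sampling noise (chi-square over its degrees of freedom, 2.09 to 28.5).

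Groups were taken from the labels. Counts were tested with edgeR 4.0.16 (R 4.3.3, limma 3.58.1) by the quasi-likelihood test, with TMM factors. The filterByExpr filter kept 10563 genes, and a mean was fitted for each of the 8 groups over all 24 libraries. P-values are two-sided and Benjamini-Hochberg adjusted over those genes. The SE is the absolute log2 fold change over the square root of F. CPM use the TMM library sizes, and 3 counts over all libraries equal 0.0574 CPM. For a group without counts, folds were set against 3 counts summed over its libraries. Intervals of count ratios are exact 95% intervals, and they and floors cover counting error only. Counts of the comparison at day 90 in passage 2 were simulated (10462 genes, 200 changed). Of 4-fold changes 94% and of 2-fold changes 61% were recovered, with 5 false calls among 160. The changed genes were drawn only from those with a mean of at least 5 CPM. The recovery therefore does not cover lower members such as Col11a1 (mean 4.09 CPM), Col4a4 (3.47) and Col23a1 (3.19).

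The members and all lists were chosen with earlier results of these data known. Named were every called member, or failing that the 3 of smallest p per direction, and the 2 highest members of each role. The alternatives tried were DESeq2 1.42.0, total counts or median-of-ratios factors, leaving out the filter or the ribosomal RNA genes, a 5 CPM minimum in 3 libraries, the replicate number as a block, a fit of only the compared groups, the Gm42418 share as a covariate, and leaving out each library. Leaving out 3 libraries with a deviating Gm42418 share was added after seeing the data. Promoter windows are RefSeq's on GRCm38.p6.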

Additional observations from a re-analysis of the deposited data

How the results depend on the processing

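Alternatives on single genes were counted for called members or, where a comparison had none, for the 3 of smallest p per direction. The direction of those differences held under all 1201 of these alternatives. Other differences given here were not counted in this way. Of the 1201 alternatives 1127 stayed on the same side of the threshold, 57 lost the call and 17 gained it. Of 282 alternative counts of called members 225 stayed within 1.5 times, where 0 against 0 was taken as unchanged. Members not called could not lose a call, so all 57 losses fell on called members. These totals include comparisons in which no member was called, and do not measure how firm the calls were. The call of Col23a1 at day 90 in passage 2 held under all 15 alternatives that could test it. DESeq2 called 1 member for irradiation at day 14 in passage 1, 5 at day 90 in passage 2, 6 in the mean, 5 for passage in sham at day 14 and 4 for day. The share of all genes called under each alternative is not given here, so these counts do not set members apart from other genes. Without a filter the counts were higher in every comparison, and adjusted p-values could be far smaller for a similar difference. For Timp3 at day 90 in passage 2 the unfiltered value was 4.2e-07, against 0.00578 in the main fit. For irradiation they were 4 and 1 (day 14, passages 1 and 2), 2 and 8 (day 90) and 11 (mean). For passage they were 5 and 6 (sham, days 14 and 90) and 9 and 3 (IR). For day there were 7, and for the interactions 2 and 1 with passage and 1 and 2 with day. With only the compared groups, fewer members could be tested, and 0 were called for irradiation at day 90 in passage 2 and 1 each for passage in sham at day 90 and IR at day 14. With the Gm42418 share as a covariate 1 each was called for the mean irradiation difference, passage in sham at day 90, and day. With total counts 6 were called for day, where the median of all genes moved by 0.14 on the log2 scale. Without the 3 libraries that stood apart there were 6 for irradiation at day 90 in passage 2, 6 in the mean, 4 for passage in sham at day 14, 0 in IR at day 14, 4 for day and 1 for the interaction with passage at day 90. With 1 library left out the counts ranged from 0 to 1 for irradiation at day 14 in passage 1, 1 to 4 at day 90 in passage 2 and 1 to 6 in the mean. They ranged from 0 to 3 and 0 to 1 for passage in sham at days 14 and 90, 0 to 4 in IR at day 14 and 1 to 5 for day. The fit of only the compared groups holds fewer libraries by construction. For the rest the cause was not tested.

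No pair of groups had all 3 same-number correlations above 0.1, and single ones ranged from -0.185 to 0.392. Replicate numbers thus showed no steady pairing. With 3 libraries in a group this cannot exclude that a number marks a shared origin. With the replicate number as a block 3 members were called for irradiation at day 90 in passage 2, 4 in the mean and 3 for passage in sham at day 14, and the counts of the other comparisons were unchanged. Depth limits the low members: 8 of 33 had too few counts for the test.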
